A study of Mus with 15 samples.

Results

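The transcripts described here came from 6 genes that are commonly used as loading controls, the reference against which other genes are normalised in PCR and protein blots. They were chosen by identifier, under a rule that uses no measured value, and were 7 in all: Gapdh (ENSMUST00000118875 and ENSMUST00000117757), Actb (ENSMUST00000100497), Hprt (ENSMUST00000026723), Tbp (ENSMUST00000014911), B2m (ENSMUST00000102476) and Pgk1 (ENSMUST00000081593). All 7 were listed for each of the 15 mice, among 126719 transcripts in the Control and AngII mice and 125443 in the AngII+QDG mice. The deposited values carry no gene names, so each name stands for its listed identifier and was not checked against an annotation of transcripts.

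Sequenced RNA came from the abdominal aorta of male, young adult, wild-type C57BL/6 mice, 5 in each of 3 groups, after 14 days of treatment. The Control group received saline. The AngII group received angiotensin II, a peptide that constricts vessels and raises blood pressure, at 500 ng/kg/min (the labels' free-text descriptions of these mice run from 500 to 504). The AngII+QDG group received AngII at 500 ng/kg/min together with Qingda granule (QDG), a formula of 4 dried herbs, at 1.145 g/kg/d. According to the methods, saline and AngII were delivered by osmotic pump, and mice without QDG were given water intragastrically. Each sample was 1 mouse, named below by its number in the labels. Values were FPKM, mapped fragments per unit of transcript length and of sequencing output, which allow levels to be set side by side between transcripts of unequal length.

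Reference genes serve processes that nearly every cell needs. Gapdh and Pgk1 encode enzymes of consecutive steps of glycolysis, Actb encodes cytoplasmic beta-actin, Hprt salvages purine bases for nucleotide synthesis, Tbp encodes the TATA-box binding protein of the general transcription machinery, and B2m is the light chain of MHC class I molecules on the cell surface. Their use as controls rests on the assumption that their level stays even between the samples compared, and B2m is known to respond to interferon and Pgk1 to low oxygen. Gapdh protein was the internal control of the study's western blots. Those were of cultured primary rat vascular smooth muscle cells, not of the mouse aortas sequenced here.

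In RefSeq's annotation of GRCm38.p6, all of these are protein-coding genes. Actb lies at chr5:142903115-142907976, B2m at chr2:122147687-122153082, Gapdh at chr6:125161852-125166467 and Tbp at chr17:15499888-15517427. The remaining genes lie on the X chromosome, Hprt at chrX:52988078-53021660 and Pgk1 at chrX:106187100-106203699. These are spans of whole genes. Exons of the individual transcripts and their sequences were not analysed here.

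Values of the AngII+QDG group rest on a different transcript list from those of the Control and AngII groups, with 108027 Ensembl transcripts in common. The list and QDG treatment cannot be told apart, which touches every value below that sets AngII+QDG mice against others. Summed FPKM ran from 454587 to 547311 per mouse, and 25675 to 29249 transcripts reached 1 FPKM. Absolute depth is unknown, and only the spread between the 5 mice of a group shows how precise a value is. Marker genes of the aorta were not checked, for want of gene names. In bulk tissue, fewer cells of a type and less RNA per cell cannot be told apart.

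The 7 transcripts fell into an abundant and a scarce set. B2m, Actb, Pgk1 and Hprt had 41.8 FPKM or more in all 15 mice, while Tbp and both Gapdh transcripts never reached 5 FPKM and were listed at 0 in at least 2 mice each. Of the scarce transcripts, Gapdh ENSMUST00000118875 had at least 1 FPKM in 8 mice, Tbp in 3 mice and Gapdh ENSMUST00000117757 in 0 mice. Both Gapdh identifiers thus went against the usual picture of Gapdh as an abundant message. Other Gapdh transcripts of the lists were not analysed here, and the level of the gene as a whole was not measured by these identifiers.

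**Figure D1:**
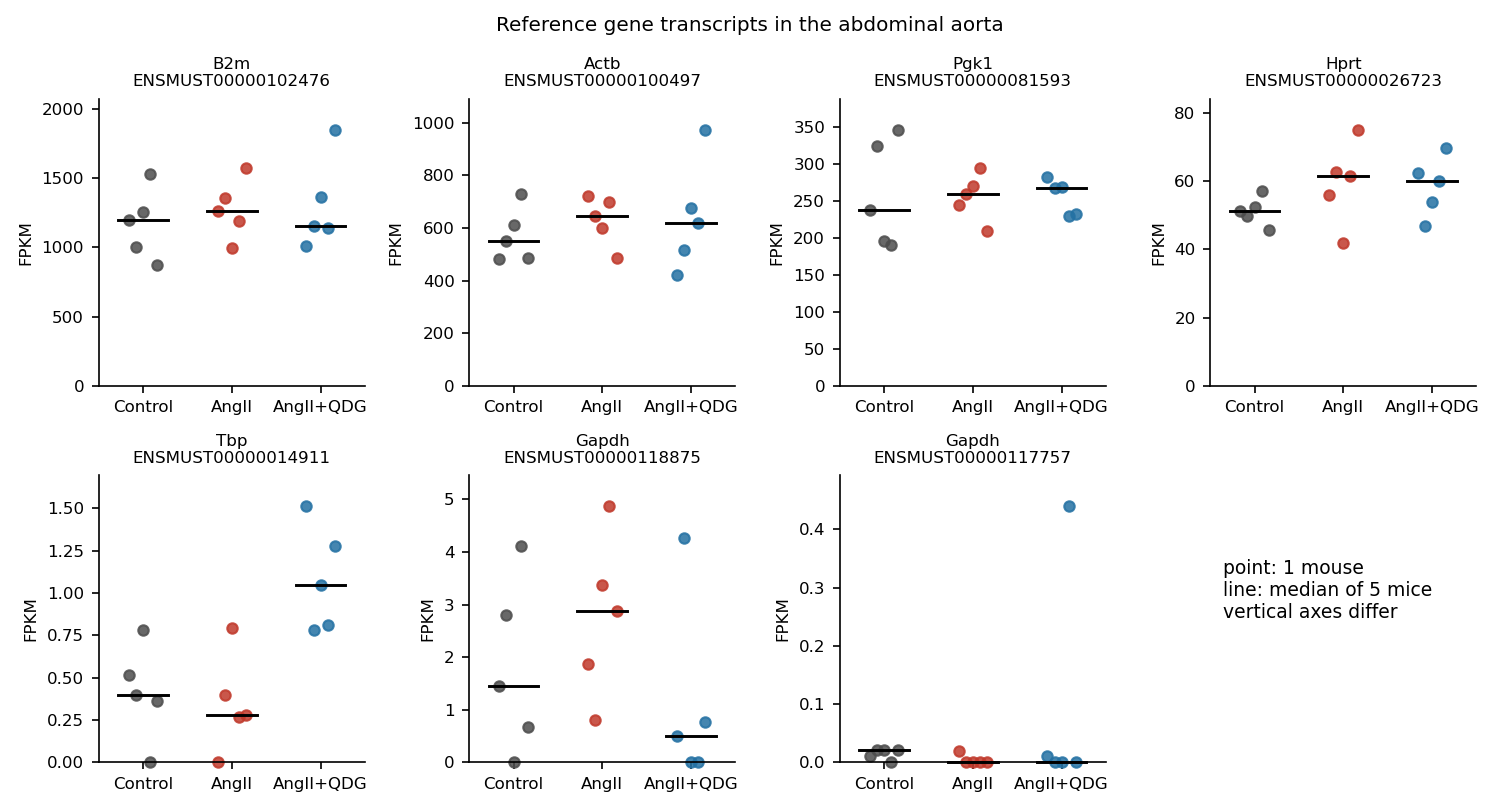
FPKM of each transcript (vertical axis, linear, from 0, and different in each panel) in the Control, AngII and AngII+QDG groups. Each point is 1 mouse and each line the median of 5 mice. B2m, Actb, Pgk1 and Hprt overlap between groups, whereas the 5 Tbp values of AngII+QDG mice (0.784 to 1.51) lie above all 5 Control values (0 to 0.782), and each Gapdh panel holds mice at 0.

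B2m, the MHC class I light chain, was the highest of the 7 in every mouse and ranked between 17th and 44th of all transcripts. Its FPKM in Control mice 3996, 4000, 4086, 3971 and 3994 was 1199, 1004, 1257, 1529.7 and 869.6. In AngII mice 3988, 3989, 3986, 3987 and 4048 it was 1261, 1352, 995, 1188 and 1571. In AngII+QDG mice 3981, 3982, 3983, 3984 and 3985 it was 1008, 1151, 1363, 1136 and 1849. The groups overlapped over most of their range, with means of 1172 ± 253, 1274 ± 212 and 1302 ± 331 FPKM (SD, n = 5 each).

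Actb, the cytoskeletal actin, came next, between rank 47 and rank 119. In the same order of mice, its FPKM was 482, 549, 613, 731 and 488 in the Control group. It was 721, 646, 602, 698 and 486 in the AngII group. In the AngII+QDG group it was 421, 517, 676, 618 and 974, the widest of the 3 groups, and that group held both the lowest and the highest Actb value of all 15 mice. Group means were 573 ± 103, 631 ± 93.3 and 641 ± 210.1 FPKM (SD, n = 5 each). AngII+QDG mouse 3985 had the highest Actb and the highest B2m of all mice, while its Pgk1 was within the range of the other AngII+QDG mice.

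Pgk1, the phosphoglycerate kinase of glycolysis, ranked between 168th and 292nd. Its FPKM was 238, 325, 197, 191 and 347 in Control mice. It was 245, 260.1, 270.5, 295 and 209 in AngII mice, and 282, 268, 269.6, 229 and 233 in AngII+QDG mice. The Control group held both the lowest and the highest values and so enclosed the other groups. Means were nearly level at 259 ± 72.4, 256 ± 31.7 and 257 ± 23.8 FPKM (SD, n = 5 each), and the coefficient of variation (CV, SD over mean) was 27.9% in Control, 12.4% in AngII and 9.28% in AngII+QDG mice. Whether the spreads themselves differed was not tested. Within the Control group, mouse 3971 combined the lowest Pgk1 with the highest B2m and Actb, and mouse 3994 the highest Pgk1 with the lowest B2m.

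Hprt, the purine salvage enzyme, was the lowest of the abundant set, between rank 910 and rank 1525. Control mice had 51.2, 49.8, 52.4, 57.1 and 45.7 FPKM. AngII mice had 56.1, 62.8, 41.8, 61.5 and 75.1 FPKM, and AngII+QDG mice 62.5, 47.0, 53.8, 60.1 and 69.9 FPKM. The Control mice lay closest together, at 51.3 ± 4.15 FPKM, against 59.5 ± 12.1 in AngII and 58.7 ± 8.69 in AngII+QDG mice (SD, n = 5 each), and 3 AngII mice and 3 AngII+QDG mice exceeded every Control mouse. AngII mouse 3986 lay below all Control mice.

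The order B2m, Actb, Pgk1, Hprt held within each of the 15 mice. Between mice, the ranges of B2m (869.6 to 1849) and Actb (421 to 974) overlapped, while Actb, Pgk1 (191 to 347) and Hprt (41.8 to 75.1) did not overlap with each other. Among the scarce transcripts no order held throughout. Gapdh ENSMUST00000118875 exceeded Tbp in 10 mice and was below it in 5, and Tbp exceeded Gapdh ENSMUST00000117757 in 13 mice, was below it in 1 and equal to it in 1.

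None of the tested reference transcripts was called between groups. Each comparison was fitted with limma on log2(FPKM + 1) over its own 10 mice, for transcripts with at least 1 FPKM in at least 5 of them. This filter kept 5 of the 7 transcripts in AngII vs. Control, 4 in AngII+QDG vs. Control and 5 in AngII+QDG vs. AngII. Tbp and Gapdh ENSMUST00000117757 did not pass in any comparison. The 3 comparisons share mice and are not independent.

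In AngII vs. Control, differentially expressed transcripts (DETs, a fold change of at least 2 and an unadjusted p below 0.05) numbered 0 of the 5 tested, against 1.5% of all 27327 transcripts. At an unadjusted p below 0.05 alone the count was 0 of 5, against 4.75% of all, and at an adjusted p below 0.05 it was 0 of 5, against 0.00732%. With 5 members, a count of 0 beside such shares is not a result about them. The log2 fold changes were 0.13 for B2m (95% interval -0.28 to 0.55), 0.14 for Actb (-0.22 to 0.50), 0.02 for Pgk1 (-0.41 to 0.44) and 0.19 for Hprt (-0.15 to 0.53). Gapdh ENSMUST00000118875 had the widest interval, 0.54 (-0.50 to 1.57), and its estimate ran from 0.22 (without Control mouse 4086) to 0.81 (without Control mouse 3971) as each mouse was left out and was 1.19 with a pseudocount of 0.1. The adjusted p of limma was 0.9946 for each of these except Pgk1, where it was 0.9998.

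In AngII+QDG vs. AngII, 0 of the 5 tested were DETs, against 3.53% of all 21081 transcripts, 0 had an unadjusted p below 0.05, against 7.86%, and 0 had an adjusted p below 0.05, against 1.73%. The log2 fold changes were 0.01 for B2m (95% interval -0.42 to 0.45), -0.02 for Actb (-0.51 to 0.47), 0.01 for Pgk1 (-0.27 to 0.28) and -0.01 for Hprt (-0.38 to 0.36), each with a limma adjusted p of 0.999. Gapdh ENSMUST00000118875 had -1.04 (-2.10 to 0.01), an unadjusted p of 0.0526 and a limma adjusted p of 0.643. It passed the filter mainly through the AngII group, with 4 AngII mice and 1 AngII+QDG mouse at 1 FPKM or more, and the fit without a filter gave the same -1.04 (unadjusted p = 0.0517).

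In AngII+QDG vs. Control, 0 of the 4 tested were DETs, against 3.64% of all 21250 transcripts, 0 had an unadjusted p below 0.05, against 8.98%, and 0 had an adjusted p below 0.05, against 1.81%. The log2 fold change was 0.14 for B2m (95% interval -0.32 to 0.61), 0.12 for Actb (-0.38 to 0.62), 0.02 for Pgk1 (-0.39 to 0.44) and 0.18 for Hprt (-0.09 to 0.46), with limma adjusted p-values of 0.949, 0.959, 0.9896 and 0.811.

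For B2m, Actb, Pgk1 and Hprt, every interval in all 3 comparisons stayed within a fold change of 2 in either direction, with bounds from -0.51 to 0.62 on the log2 scale. Smaller differences are left undecided by 5 mice against 5. Over all tested transcripts the median log2 fold change was 0.02 in AngII vs. Control, 0.02 in AngII+QDG vs. Control and -0.0032 in AngII+QDG vs. AngII, and the median size of the change without its sign was 0.18, 0.18 and 0.17 in the same order. The signs of changes near 0 moved with the scaling of each mouse. Pgk1 in AngII vs. Control became -0.01 when mice were scaled by their 75th percentile, and Actb and Hprt in AngII+QDG vs. AngII became 0.02 and 0.03 when the shared transcripts were rescaled to an equal sum.

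**Figure D2:**
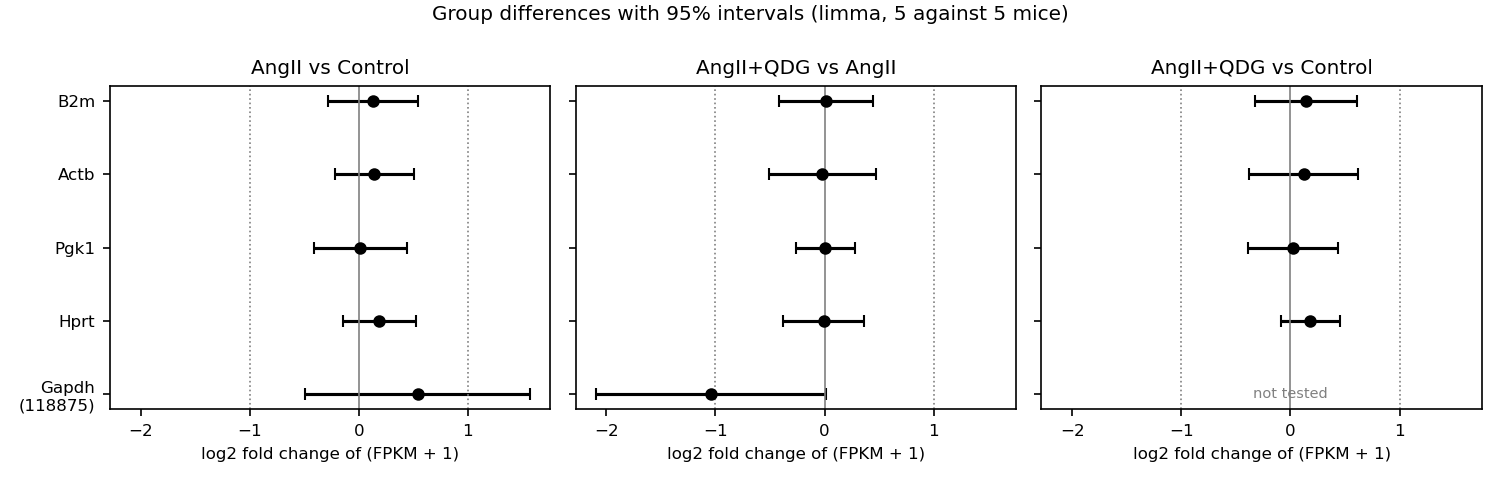
Log2 fold change of FPKM + 1 (horizontal axis) for the reference transcripts that passed the filter, in the 3 comparisons, with points for the limma estimate and bars for its 95% interval (5 against 5 mice). Dotted lines mark a fold change of 2. The bars of B2m, Actb, Pgk1 and Hprt cross 0 and stay between the dotted lines, whereas those of Gapdh ENSMUST00000118875 extend past them (-0.50 to 1.57 and -2.10 to 0.01).

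Each transcript was also tested on its own mice with a 2-sided exact permutation test of mean log2(FPKM + 1), which cannot give a p below 0.00794 for 5 against 5 mice. There were 3 such tests for each of the 7 transcripts. The exact p lay between 0.381 and 0.921 for Actb, between 0.452 and 0.937 for B2m, between 0.944 and 0.960 for Pgk1 and between 0.143 and 0.960 for Hprt. The Hprt value depended on single mice. Without AngII mouse 3986 the log2 difference in AngII vs. Control was 0.31 (exact p = 0.0317), and without AngII+QDG mouse 3982 the difference in AngII+QDG vs. Control was 0.26 (exact p = 0.0317).

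Tbp, the general transcription factor, was the exception among the 7 in these exact tests. Its identifier stands for 1 scarce transcript, and the level of the Tbp gene as a whole was not measured. The transcript was at 0.519, 0.401, 0.782, 0 and 0.362 FPKM in Control mice 3996, 4000, 4086, 3971 and 3994. It was at 0, 0.396, 0.792, 0.266 and 0.283 FPKM in AngII mice, and at 1.51, 0.784, 1.04, 0.810 and 1.28 FPKM in AngII+QDG mice. Every AngII+QDG mouse lay above every Control mouse, although the nearest values, 0.7839 and 0.7819, were almost equal. Of the AngII+QDG mice, 4 lay above every AngII mouse. The exception was AngII+QDG mouse 3982 (0.784), which lay below AngII mouse 3986 (0.792).

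The mean of log2(FPKM + 1) of Tbp was higher by 0.57 in AngII+QDG than in Control mice (exact permutation p = 0.00794, the smallest the design allows) and by 0.64 than in AngII mice (exact permutation p = 0.0159). Between AngII and Control mice the difference was -0.07 (exact permutation p = 0.722). Across all transcripts, without a filter, limma gave adjusted p-values of 0.438, 0.3003 and 0.960 for these, so no call was made at the scale of the whole list. The size of the differences depended on the pseudocount, and with 0.1 they were 1.47 against Control and 1.67 against AngII mice. After scaling by each mouse's 75th percentile, the AngII+QDG mice still lay above the Control mice, at 0.794 to 1.56 against 0 to 0.744. Leaving out each mouse in turn kept the differences between 0.46 and 0.66 against Control and between 0.54 and 0.75 against AngII mice.

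The same separation was counted over all transcripts. Of 103208 shared transcripts above 0 in at least 1 mouse, 0.79% had every AngII+QDG mouse above every Control mouse, and among those with a mean of 0.3 to 1.2 FPKM, near the level of Tbp, the share was 1.34%. The shares for AngII+QDG above AngII, where Tbp overlapped by 1 mouse, were 0.745% and 1.38%. No fold change is given, since 1 mouse in each of the other groups was listed at 0, and the part played by the other transcript list was not tested.

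Gapdh ENSMUST00000118875 held nearly all of the signal of the Gapdh identifiers. Control mice 3996, 4000, 4086, 3971 and 3994 had 1.46, 2.81, 0, 4.11 and 0.676 FPKM. AngII mice 3988, 3989, 3986, 3987 and 4048 had 1.87, 0.814, 3.37, 4.87 and 2.87 FPKM, and AngII+QDG mice 3981, 3982, 3983, 3984 and 3985 had 0.499, 4.27, 0, 0 and 0.772 FPKM. AngII mice were all above 0, whereas 1 Control mouse and 2 AngII+QDG mice were listed at 0. All AngII+QDG mice except 3982 lay below every AngII mouse.

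The exact permutation p for Gapdh ENSMUST00000118875 was 0.310 in AngII vs. Control, 0.429 in AngII+QDG vs. Control and 0.0952 in AngII+QDG vs. AngII. Mouse 3982 decided the last of these, since without it the difference in log2(FPKM + 1) went from -1.04 to -1.45 (exact p = 0.0159). In limma the same comparison met the DET limits without AngII mouse 3989 (-1.28, unadjusted p = 0.0244), with a pseudocount of 0.1 (-2.40, unadjusted p = 0.0395) and after rescaling to the shared transcripts (-1.51, unadjusted p = 0.0436). These values are given as a description, since the transcript missed the filter in 5 of the 10 fits that left out a mouse (without AngII mice 3988, 3986, 3987 and 4048 and without AngII+QDG mouse 3982), and since 2 AngII+QDG mice at 0 set the size of the change under the smaller pseudocount. The rescaling also raised every value against the pseudocount of 1, so the same limit holds there. Scaling by the 75th percentile gave -1.05 (limma unadjusted p = 0.0551), which missed the DET limits.

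Gapdh ENSMUST00000117757 was listed at 0 in 8 mice. It had 0.0106, 0.0221, 0.0213, 0 and 0.0207 FPKM in Control mice. It was above 0 only in mouse 3988 of the AngII group, at 0.0203 FPKM, and in mice 3981 and 3984 of the AngII+QDG group, at 0.0103 and 0.440 FPKM. The exact permutation p was 0.0873 in AngII vs. Control, 0.992 in AngII+QDG vs. Control and 0.722 in AngII+QDG vs. AngII. Without Control mouse 3971, the only Control mouse at 0, the first was 0.0317 for a difference of -0.02 in log2(FPKM + 1).

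The shift between the Gapdh transcripts was measured as the percent of their summed FPKM that ENSMUST00000118875 held, a share in which any scaling of a mouse cancels. It was 97.0% to 100% in 12 mice. It was 0% in Control mouse 4086 and in AngII+QDG mouse 3984, where only ENSMUST00000117757 was above 0, and it had no value in AngII+QDG mouse 3983, where both were listed at 0. Group means were 79.1% in Control (n = 5), 99.8% in AngII (n = 5) and 74.5% in AngII+QDG mice (n = 4), and the distance between them came from the mice at 0%. Exact permutation tests gave p = 0.127 for AngII vs. Control, 0.333 for AngII+QDG vs. AngII and 0.968 for AngII+QDG vs. Control. Without Control mouse 3971 the first was 0.0476, for a difference of 25.9 percentage points.

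The sum of both Gapdh transcripts was an uneven divisor for the other genes. Where it was above 0 it ran from 0.0213 to 4.87 FPKM, a 229-fold range. The low end was Control mouse 4086 alone, and without it the sum ran from 0.440 FPKM, an 11.1-fold range, against a highest-to-lowest ratio of 2.31 for Actb, 2.13 for B2m, 1.81 for Pgk1 and 1.80 for Hprt. The log2 ratio of Actb to this sum ran from 6.92 to 14.81, and over ENSMUST00000118875 alone, which leaves out the mice at 0, from 6.92 to 10.30. AngII+QDG mouse 3983 has no ratio, as its sum was 0, so that 4 AngII+QDG mice entered the tests (and, for Tbp, 4 mice of each group). In 15 exact permutation tests of Actb, Hprt, Tbp, B2m and Pgk1 over this sum, 0 had a p below 0.05, and p ran from 0.0857 to 1. Without AngII+QDG mouse 3982, which left 3 AngII+QDG mice against 5 AngII mice, 3 of the ratios (Actb, Hprt and B2m) were higher in AngII+QDG mice by 2.1, 2.21 and 2.11 on the log2 scale (exact permutation p = 0.0357 each, the smallest that 3 against 5 mice allow). The 3 ratios share their divisor and are not separate results. Mouse 3982 had the highest Gapdh sum of its group.

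Ratios among the abundant genes were far tighter. Of 21 possible pairs of the 7 transcripts, 6 had a value in every mouse. Over the 15 mice pooled, B2m and Hprt kept the most even ratio, with a median of 22.5 (range 16.1 to 26.8) and an SD of 0.21 on the log2 scale. Within groups this held in AngII mice only (SD of 0.11). In Control mice Actb to Hprt was tighter (0.16 against 0.20), and in AngII+QDG mice B2m to Actb was (0.16 against 0.31). B2m to Actb had a median ratio of 2.02 (1.65 to 3.23) and an SD of 0.25, and Actb to Hprt 11.04 (6.46 to 14.4) and 0.33. The ratios with Pgk1 were wider, with medians of 5.04 (2.51 to 8.01) for B2m to Pgk1, 2.37 (1.41 to 4.18) for Actb to Pgk1 and 4.52 (2.79 to 7.58) for Pgk1 to Hprt and SDs of 0.49, 0.45 and 0.40.

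Averaged over its 3 partners, the SD of the log2 ratio was 0.31 for Hprt, 0.32 for B2m, 0.35 for Actb and 0.45 for Pgk1. Pgk1 thus kept its ratios least. No test of these SDs was made. Between groups, 18 exact permutation tests of the 6 ratios had p from 0.548 to 0.976, and the group differences ran from -0.18 to 0.13 on the log2 scale. In the 10 Control and AngII mice, which share a transcript list, the SDs were 0.16 for B2m to Hprt, 0.30 for B2m to Actb and 0.54 for B2m to Pgk1.

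**Figure D3:**
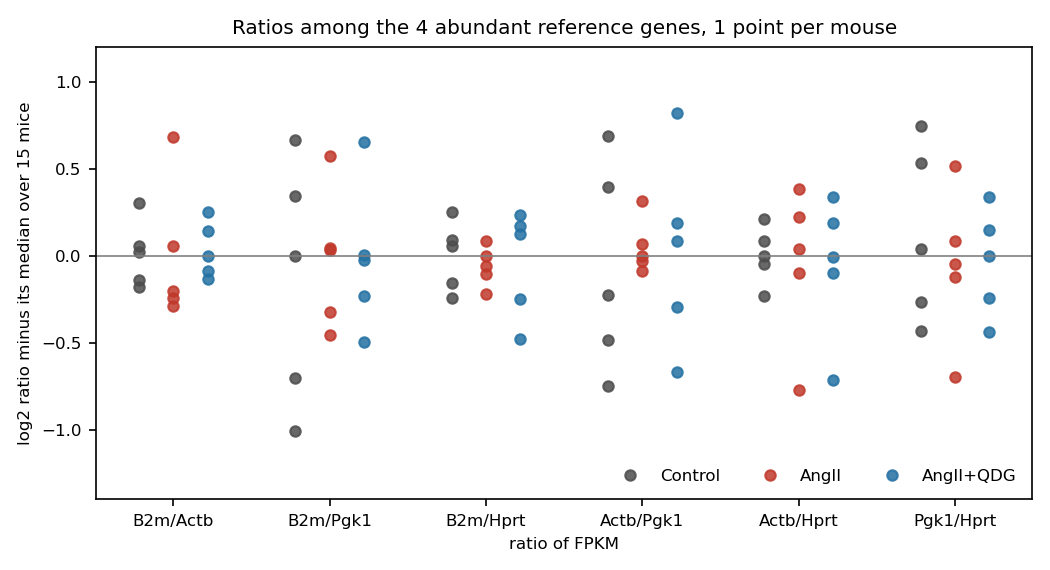
Log2 ratio of FPKM for the 6 pairs among B2m, Actb, Pgk1 and Hprt, each minus its median over 15 mice (vertical axis), with 1 point per mouse and colours for the groups. The 3 groups overlap in each ratio, and the ratios to or from Pgk1 (SD of 0.40 to 0.49) scatter more widely than B2m to Hprt (SD of 0.21).

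Set against all transcripts, the abundant reference genes were among the more even ones but not the most even. The SD of log2(FPKM + 1) over 15 mice was 0.23 for Hprt, 0.25 for Pgk1, 0.29 for B2m and 0.31 for Actb. Of 23914 shared transcripts with at least 1 FPKM in at least 5 mice, 15.7% had a smaller SD than Hprt, 19.1% than Pgk1, 27.4% than B2m and 31.8% than Actb. After scaling by each mouse's 75th percentile the shares were 8.67% for Hprt, 33.0% for Pgk1 and 14.8% for B2m, and in the 10 Control and AngII mice that of Pgk1 was 34.2%. Most of this spread was within groups, where the pooled SD was 0.22 for Hprt, 0.26 for Pgk1, 0.30 for B2m and 0.33 for Actb.

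As spread can depend on level, each gene was also set against transcripts within 0.5 of its mean log2(FPKM + 1). Of 742 transcripts near Hprt 31.1% had a smaller SD, of 159 near Pgk1 11.9%, of 25 near B2m 12.0% and of 59 near Actb 33.9%. The order depended on the scaling of the mice. After scaling by the 75th percentile the SD was 0.18 for Hprt, 0.22 for B2m, 0.28 for Actb and 0.31 for Pgk1, so that Pgk1 went from the second most even of the 4 to the least even.

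Gapdh ENSMUST00000118875 had an SD of 0.92, and 87.3% of all transcripts, and 88.4% of 9890 near its level, had a smaller one. Tbp had an SD of 0.39 over all mice and of 0.28 within groups. That of Gapdh ENSMUST00000117757 was 0.13, a value set by its many mice at or near 0.

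**Figure D4:**
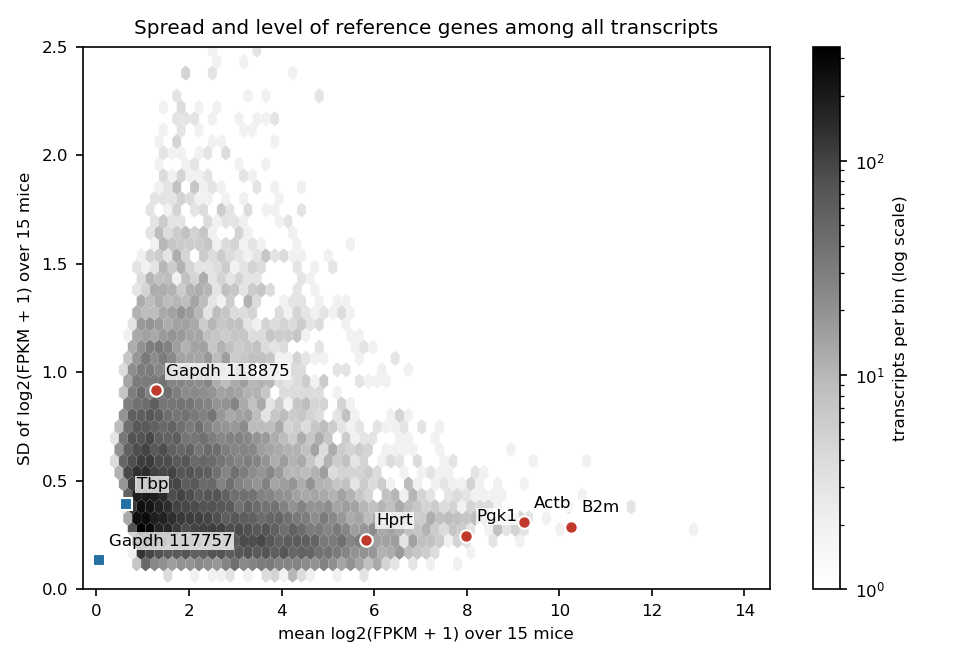
SD of log2(FPKM + 1) over 15 mice (vertical axis) against its mean (horizontal axis) for 23914 transcripts, as hexagonal bins shaded by count on a log scale, with 62 transcripts above the axis limit. Red circles are reference transcripts that passed the filter, and blue squares Tbp and Gapdh ENSMUST00000117757, which did not. Hprt, Pgk1, Actb and B2m lie low on the right (SD of 0.23 to 0.31), and Gapdh ENSMUST00000118875 lies high on the left (SD of 0.92).

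The shared transcripts whose log2(FPKM + 1) followed Gapdh ENSMUST00000118875 most closely over the 15 mice, among 23909 compared, were ENSMUST00000226830 (Pearson's r = 0.83, Spearman's rho = 0.86, 0.535 to 2.13 FPKM) and ENSMUST00000034111 (r = 0.82, rho = 0.81, 0.291 to 6.04 FPKM). These are the highest of many correlations over few mice and are given as a description.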

How the data were processed

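The authors removed ribosomal RNA, filtered the reads, mapped them to GRCm38/mm10 (HISAT2) and assembled and quantified transcripts (StringTie). The deposited files hold FPKM per transcript, scaled by the authors for transcript length and mapped fragments. How fragments were divided between transcripts of 1 gene was not examined here, and scaled values allow no test of counts. Files of 15 mice (0 pairs identical) were grouped by their labels, and labels alone say that mice of a group are separate animals.

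The rule for the members uses identifiers alone, but the genes, the rule and the tests were set with earlier results of these data known. All 7 transcripts were described, plus the 2 transcripts most correlated with the higher Gapdh transcript. Lists of further reference genes and of cell type markers needed gene names and were not used here.

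limma 3.58.1 (R 4.3.3; lmFit, then eBayes with a trend) was run for each comparison on log2(FPKM + 1), at a floor of 1 FPKM in 5 mice, with Benjamini-Hochberg adjustment over all transcripts tested. The fit was tested on simulated data. The 126719 transcripts of the common list entered AngII vs. Control, and the 108027 shared Ensembl transcripts the other comparisons. Exact permutation tests used scipy 1.17.1, in Python 3.11.15 with numpy 2.4.6 and pandas 2.3.3. Alternatives were other filters, a pseudocount of 0.1, 1 fit of all groups, scaling by the 75th percentile, rescaling to the shared transcripts and leaving out each mouse. After the data were seen, ratios among the 4 abundant genes, spreads near a gene's level, the share of separated groups and the scaled exact test were added. RefSeq's table for GRCm38.p6 gave gene positions. Figures were drawn with matplotlib 3.10.9.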

Additional observations from a re-analysis of the deposited data

Results flagged for a closer look

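In each group of 5 mice, the highest and the lowest value were set against the rest by Dixon's ratio of the gap to the range, with a critical value of 0.71. Among 39 sets of values 3 exceeded it, and chance alone would give about 1.95 were the values independent, normal and untied. They are not, since the sets are FPKM values, many at 0, and log2 ratios of the abundant genes among them. The expected number is therefore only a rough guide. Gapdh ENSMUST00000118875 was at 4.27 FPKM in AngII+QDG mouse 3982, against 0 to 0.772 in the other AngII+QDG mice (ratio 0.819). Gapdh ENSMUST00000117757 was at 0.0203 FPKM in AngII mouse 3988, against 0 in the other AngII mice (ratio 1.0, which any value above 0 would have given there). The same transcript was at 0.440 FPKM in AngII+QDG mouse 3984, against 0 to 0.0103 in the others (ratio 0.977), and in that mouse ENSMUST00000118875 was listed at 0.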

How the results depend on the processing

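Of 659 values recomputed under the alternatives, 588 were rated the same, 46 changed sign, 17 moved and 8 passed a threshold that they had missed. For differences, the same meant an unchanged sign and side of the threshold. Counts and percents of transcripts could differ by a small factor. An SD could change by less than its own size, a limit that could hardly be missed, so the total says little about SDs. No paired analysis was possible because the labels number the mice individually, with no replicate number shared between groups and nothing that ties mice of different groups together. Under other scalings, signs changed only for log2 fold changes within 0.0327 of 0. Scaling by the 75th percentile gave Pgk1 a log2 fold change of -0.0149 in AngII vs. Control, -0.0195 in AngII+QDG vs. Control and -0.000405 in AngII+QDG vs. AngII. Rescaling to the shared transcripts gave -0.0269 for Pgk1 in AngII vs. Control, and 0.0198 for Actb and 0.0327 for Hprt in AngII+QDG vs. AngII. That rescaling also raised every value against the pseudocount of 1, which matters for scarce transcripts. In AngII+QDG vs. AngII, 1 transcript instead of 0 met the DET limits with a pseudocount of 0.1 and after rescaling to the shared transcripts (Gapdh ENSMUST00000118875 both times). The count with an unadjusted p below 0.05 was 1 under the same settings and 1 with no filter, where it was Tbp, as in AngII+QDG vs. Control, where it was also 1 with no filter. Against transcripts near their level, 31.1%, 12.0% and 11.9% had a smaller SD than Hprt, B2m and Pgk1. That of B2m was 12.0% and 12.5% under other scaling and in the 10 Control and AngII mice, while the others moved, to 17.9% for Hprt and 35.2% for Pgk1 after scaling by the 75th percentile, and to 27.8% for Pgk1 and 10.8% for Actb (33.9% over all mice) in the 10 Control and AngII mice.

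Leaving out each mouse in turn, log2 fold changes in AngII vs. Control ran from -0.083 to 0.13 for Pgk1, 0.03 to 0.23 for B2m and 0.09 to 0.24 for Actb. In AngII+QDG vs. AngII they ran from -0.19 to 0.12 for Actb, -0.13 to 0.082 for Hprt (fitted and exact), -0.12 to 0.10 for B2m and -0.063 to 0.060 for Pgk1, and in AngII+QDG vs. Control from -0.043 to 0.26 for Actb, 0.0099 to 0.25 for B2m and -0.076 to 0.14 for Pgk1. Counts at an unadjusted p below 0.05 ran from 0 to 1 in AngII vs. Control (1 without mouse 3986, Hprt) and from 0 to 1 in AngII+QDG vs. AngII (1 without mouse 3989, Gapdh ENSMUST00000118875, also the only change in the count of DETs, 0 to 1). Exact tests with p below 0.05 numbered 0 to 1 in AngII vs. Control, 1 to 2 in both comparisons with AngII+QDG mice. The share of all transcripts at that limit was not counted, so these counts are a description. Differences tested exactly ran from -0.19 to 0.032 for Tbp in AngII vs. Control, and for Gapdh ENSMUST00000117757 from -0.00210 to 0.13 in AngII+QDG vs. AngII and from -0.0176 to 0.11 in AngII+QDG vs. Control. The difference in the Gapdh share ran from 0.902 to 25.9 percentage points in AngII vs. Control, -24.4 to 20.2 in AngII+QDG vs. Control and -33.8 to -0.461 in AngII+QDG vs. AngII. Ratios to Gapdh with p below 0.05 numbered 0 to 3 in AngII+QDG vs. AngII, the 3 without mouse 3982. The log2 ratio of the Gapdh transcripts could not be tested, since both were above 0 in only 5 mice. The cause of these changes was not tested. What depth limits cannot be read from FPKM.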
